A study of Mus musculus with 18 samples.

Results

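In mouse embryonic fibroblasts lacking Dicer, 78 exon probe sets stood apart from the level of their genes. The shift was shared by neither AGO2 null nor wild-type cells. Of the 78, 52 were lower and 26 were higher in Dicer null cells, and together they lay in 66 genes. Within their genes, 35 of the 78 were isolated and 43 had a companion, as defined below. The 4 largest differences, all lower, were in single probe sets of Metap2 and Cse1l and in 2 of the 3 members of Dlc1, and Col5a1 held the most members, 8. Most of the higher ones were dim, with 22 of the 26 under 6 (log2) in wild type. Only 1 of the 26 stayed a member when an offset of 50 was added to the linear values. Hnrnpab and Wnk1 each held 1 higher member.

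The members were chosen from the measured values. An exon probe set is a small group of array probes that reads 1 stretch of exon. The gene level was the median of all probe sets of a gene on an array, and the index was what remained of a probe set's log2 value after that gene level was subtracted. Genes had to have 4 or more probe sets, a mean level at or above the median of genes (6.91 on the log2 scale), and group means of the gene level within 0.5 of each other. A probe set became a member when its mean index in Dicer null differed by 1 or more (2-fold), in the same direction, from both other groups, while those groups differed from each other by less than 0.5. Of 229581 exon probe sets, 209279 had 1 gene symbol, and 64945 of these, in 4098 genes, met the limits on the gene. The 78 members were 0.12% of the 64945 (0.0801% lower and 0.04% higher). A companion was another probe set of the same gene whose index differed in the same direction by 0.5 or more from both other groups. Companions were found for 43 members (32 lower and 11 higher), and 35 (20 lower and 15 higher) had none. Members of the same gene count as companions of each other. The share of all eligible probe sets with a companion was not counted, so nothing is read from these numbers. All index and gene-level differences of the members entered this choice, so they are given as descriptions without a test.

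The study measured RNA of AGO2 -/-, Dicer -/- and wild-type embryonic fibroblasts on Affymetrix mouse exon arrays, with 3 arrays per genotype. Cells of all genotypes spent 3 days in DMEM containing 7% fetal calf serum, and labelling used the NuGEN Applause system. Wild-type and Dicer null cells share a source, and AGO2 null cells are from a different one. The labels name 1 line per genotype and call the arrays biological replicates without naming separate lines or animals. Genotype and line therefore cannot be told apart, and the spread behind each p-value is between arrays of 1 line and may be technical.

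Most mammalian genes are split into exons that are joined by splicing, and a cell can vary a transcript by skipping an exon, by starting at another promoter or by ending at another site. Dicer cuts microRNA precursors into mature microRNAs, and AGO2 is one of the Argonaute proteins that carry them to target messenger RNAs. Argonaute proteins have also been linked to the choice of exons in the nucleus. RNA-binding proteins such as the MBNL, CELF, RBFOX and SR families are the usual regulators of that choice.

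The probe sets carry no position in the files used here, so their exons cannot be named. For a view of gene starts, promoters from RefSeq (GRCm38.p6, 250 bases before to 50 after the listed start) are given for Col5a1, which held the most members, and for Cdkn2a, whose probe sets behaved in groups and which has 2 listed starts. Capitals mark GC boxes (GGGCGG or CCGCCC) and a CCAAT box (CCAAT or ATTGG), which overlap by 2 letters at the first Cdkn2a start.
Col5a1, chr2:27886175-27886474, plus strand: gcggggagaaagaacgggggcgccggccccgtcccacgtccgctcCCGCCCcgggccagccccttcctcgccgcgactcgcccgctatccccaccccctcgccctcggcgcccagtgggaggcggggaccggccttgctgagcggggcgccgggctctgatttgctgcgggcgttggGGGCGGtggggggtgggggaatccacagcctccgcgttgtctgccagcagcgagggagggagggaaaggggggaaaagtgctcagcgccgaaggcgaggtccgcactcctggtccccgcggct
Cdkn2a, first start, chr4:89282143-89282442, minus strand: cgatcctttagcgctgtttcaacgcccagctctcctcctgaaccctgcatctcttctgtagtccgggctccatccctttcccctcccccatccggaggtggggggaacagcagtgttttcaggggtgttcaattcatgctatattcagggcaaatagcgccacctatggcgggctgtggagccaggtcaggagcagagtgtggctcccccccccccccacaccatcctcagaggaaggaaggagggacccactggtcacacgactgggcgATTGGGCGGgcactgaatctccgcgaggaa
Cdkn2a, second start, chr4:89294570-89294869, minus strand: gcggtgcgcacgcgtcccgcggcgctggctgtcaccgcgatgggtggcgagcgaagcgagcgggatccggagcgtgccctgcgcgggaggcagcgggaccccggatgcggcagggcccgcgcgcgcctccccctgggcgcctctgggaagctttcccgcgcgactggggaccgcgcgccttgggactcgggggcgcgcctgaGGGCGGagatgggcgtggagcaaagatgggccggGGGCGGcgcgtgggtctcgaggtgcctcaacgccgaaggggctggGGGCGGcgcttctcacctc

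The Col5a1 promoter held 2 GC boxes, the first Cdkn2a start held 1 and the second held 3. The first Cdkn2a start also held 1 CCAAT box, and no TATA box (TATAAA or TTTATA) was found in these windows. Over 32851 promoters of the same length, 35.7% held a GC box, 37.4% a CCAAT box and 13.6% a TATA box on either strand. The second Cdkn2a start had 45 CpG pairs and 77% G and C, the first had 12 and 60.3%, and Col5a1 had 34 and 75%, against medians of 7 and 52.7% over all promoters.

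Labels and arrays were checked first. Dicer1 at the gene level was 8.42, 8.35 and 8.35 (log2) in Dicer null against 9.17, 9.17 and 9.20 in wild type, and Ago2 was 6.74, 6.92 and 6.65 in AGO2 null against 8.24, 8.20 and 8.24. Exon-level arrays correlated at 0.976 to 0.989 within genotypes and 0.931 to 0.955 between them, over probe sets that are not independent. The summed linear level of 20 fibroblast markers was 18579 to 18753 in Dicer null, 26399 to 27435 in wild type and 34172 to 34448 in AGO2 null, and 15 of the 20 were lower in Dicer null than in wild type at a limma adjusted p under 0.05, beside 15.7% of all rows. Vim was 11.67 against 11.76, whereas Prrx1 was 5.18 against 10.60. Of 14 epithelial markers 3 were higher in Dicer null, beside 11.2% of all rows (summed level 4156 to 4389 against 783 to 853 in wild type and 1540 to 2030 in AGO2 null), namely Krt18, Krt19 and Esrp2, while Cdh1 (5.93 against 5.84) and Epcam (5.68 against 5.70) did not pass the test. Summed levels in Dicer null, wild type and AGO2 null were 300 to 302, 448 to 513 and 332 to 426 for 7 endothelial markers and 476 to 505, 726 to 847 and 537 to 593 for 8 neural and glial markers. For 9 muscle markers they were 3751 to 3859, 4022 to 4077 and 4948 to 5524, although the mean log2 level of this list was highest in Dicer null (7.27 to 7.34 against 6.96 to 7.05 and 7.10 to 7.21). For 8 macrophage and leukocyte markers they were 409 to 430, 478 to 529 and 379 to 433, so Dicer null lay within the AGO2 null range. The part of these levels in the exon differences was not tested. Bulk samples cannot tell fewer cells of a type from less RNA per cell.

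The lower members had a median of 8.01 in wild type, 7.71 in AGO2 null and 5.97 in Dicer null, beside a wild-type median of 8.48 over all eligible probe sets. In wild type 26 of the 52 were at 8 or more, beside 60.2% of eligible probe sets, and 9 were under 6. The higher members were dim: 22 of 26 were under 6 in wild type, beside 8.05% of all eligible probe sets, and their median went from 4.5 in wild type and 4.47 in AGO2 null to 5.64 in Dicer null. Of the higher members 24 lay below the level of their gene in every group. Lower members lay below the gene level in all groups in 30 cases, above it in all groups in 13, and changed sides between groups in 9. The index of the Dicer null arrays did not overlap the other 6 arrays in 66 members (44 lower and 22 higher). The same was seen in 5.75% of eligible probe sets (2.93% lower and 2.82% higher), and since the rule used this contrast nothing is read from it.

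**Figure D1:**
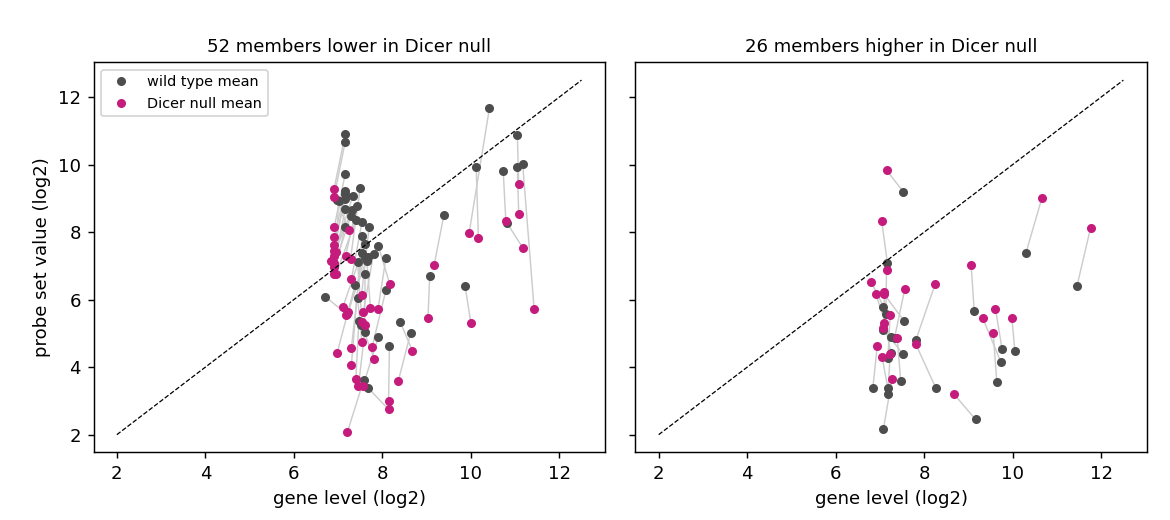
Mean log2 value of each member (vertical) against the log2 level of its gene (horizontal), with wild type and Dicer null joined by a line and equality dashed. The 26 higher members mostly lie far below the dashed line in both genotypes, and 13 of the 52 lower members stay above it.

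Metap2, which encodes the aminopeptidase that removes the first methionine from new proteins, held the largest difference of all members. Its probe set 4566345 was 10.58, 10.62 and 10.76 on AGO2 null arrays, 5.73, 6.04 and 5.34 in Dicer null and 10.14, 9.75 and 10.14 in wild type. All Dicer null arrays were far below the rest, with a mean of 5.71 ± 0.35 (SD, n = 3) against 10.01 ± 0.22. The other 12 probe sets of the gene differed from wild type by only 0.07 to 0.41 and from AGO2 null by -0.18 to 0.40. The index difference was -4.57 against wild type and -4.93 against AGO2 null.

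Cse1l encodes the export receptor that returns importin alpha to the cytoplasm. Its probe set 4980334 was the brightest of the gene's 28 in wild type, at 11.78, 11.62 and 11.65, and read 11.06, 11.27 and 11.19 in AGO2 null and 7.82, 8.31 and 7.79 in Dicer null. The groups did not overlap, and the mean lay below the gene level in Dicer null and above it in the other groups. Another probe set, 4974905, differed by -1.2 from wild type and by -1.09 from AGO2 null and was no member. The median of the 27 others was 0.17 above wild type.

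Dlc1 is known as a tumour suppressor gene, and 3 of its 26 probe sets were members. Probe set 5552682 was 7.95, 7.13 and 7.95 in AGO2 null, 7.83, 7.87 and 7.91 in wild type, and 4.51, 4.02 and 3.68 in Dicer null. Probe set 5410331 was 7.65, 7.85 and 7.57 in AGO2 null, 7.11, 7.60 and 7.46 in wild type, and 3.89, 4.81 and 5.0 in Dicer null. On every Dicer null array both lay below the range of the other genotypes. The remaining member, 5471124, was 8.14 ± 0.38 in AGO2 null, 8.30 ± 0.39 in wild type and 6.60 ± 0.49 in Dicer null (SD, n = 3). The other 23 had a median difference of 0.22 against wild type, with none lower by 1 or more in both comparisons.

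The gene-level table, a separate summary of the same arrays, split Dlc1 into 2 rows. One had means of 7.93 in wild type, 8.11 in Dicer null and 7.82 in AGO2 null, and the other had means of 6.18, 5.17 and 6.34. The second row differed in Dicer null by -1.0 from wild type and by -1.17 from AGO2 null, while the first differed by 0.18 and 0.29.

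**Figure D2:**
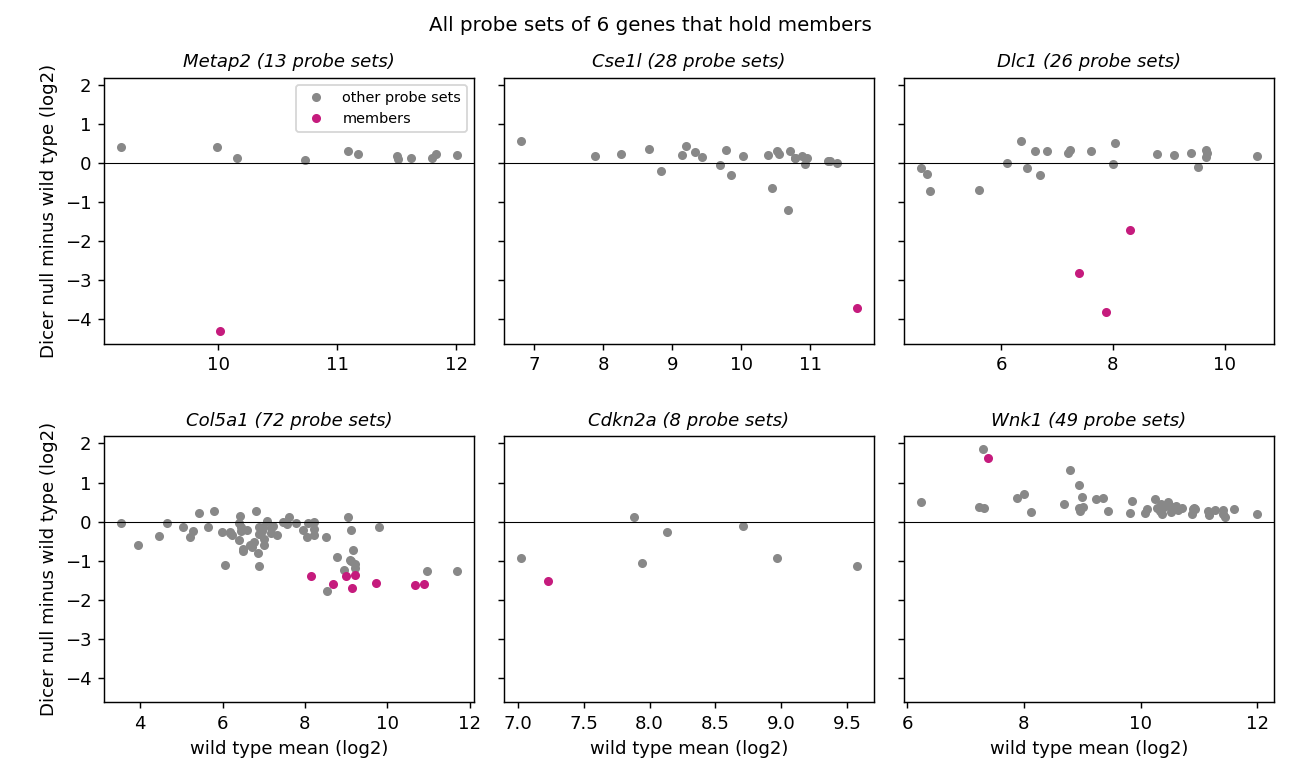
Difference between Dicer null and wild type (log2, vertical) of every probe set of 6 genes against its wild-type mean (log2, horizontal), with members coloured. Metap2 has 1 isolated point. Cse1l has 1 member far below the rest and another probe set lowered less, and Dlc1 has 3 members below its other probe sets. The Col5a1 members continue a broad drop among its brighter probe sets.

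Col5a1 encodes the main chain of type V collagen, a fibril component of connective tissue, and is itself on the fibroblast marker list. Of its 72 probe sets 8 were members, all lower in Dicer null and all bright, with wild-type means of 8.15 to 10.89. The brightest member, 4546171, was 10.90, 10.75 and 10.81 on AGO2 null arrays, 9.33, 9.26 and 9.26 in Dicer null and 10.97, 10.82 and 10.89 in wild type, without overlap. The member with the largest difference, 5052630, was 9.46, 9.13 and 9.37 on AGO2 null arrays, 7.63, 7.23 and 7.45 in Dicer null and 9.13, 9.02 and 9.25 in wild type.

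These members were not isolated within Col5a1. Among its 27 probe sets at 8 or more in wild type the median difference was -1.08, and 14 were lower by 1 or more in both comparisons. Among the 45 dimmer ones the median was -0.24, and 2 were lower by that much. The gene level used by the rule, a median over all 72, was 7.16 in wild type and 6.91 in Dicer null, within the limit of 0.5. The separate gene-level row had a mean of 7.30 in wild type, 6.67 in Dicer null and 7.34 in AGO2 null. One more probe set, 5291892, had index differences of -1.51 against wild type and -2.15 against AGO2 null, and was left out because these groups (8.54 and 9.29) differed from each other. Membership of Col5a1 depended on how the gene level was set. With the mean of its probe sets as gene level, 5 of the 8 members had a smaller index difference of -0.83 to -0.92, short of the threshold. With the separate gene-level row, 7 of the 8 were at -0.72 to -0.97. In both settings the group means of the gene level were also more than 0.5 apart. Col5a1 was then not eligible, and none of its probe sets was a member.

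Cdkn2a encodes the cell cycle inhibitor p16INK4a and, from another first exon, the p53 activator ARF. Its member 4365486 was 7.04, 7.05 and 6.87 on AGO2 null arrays, 5.90, 5.09 and 6.14 in Dicer null and 7.64, 6.81 and 7.25 in wild type, and the Dicer null arrays lay below all others. Of the 8 probe sets, 5 were lower in Dicer null by 0.5 or more in both comparisons and 3 stayed within 0.5. The steady ones, 4932098, 4976462 and 5236406, differed from wild type by -0.26, 0.13 and -0.11. In the gene-level table the gene averaged 8.51 in wild type, 7.65 in Dicer null and 8.36 in AGO2 null.

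Tnfsf11 encodes RANKL, the ligand that drives osteoclast formation, and 2 of its 12 probe sets were members. Probe set 5267395 was 7.44, 8.01 and 7.57 on AGO2 null arrays, 5.83, 5.38 and 4.83 in Dicer null and 7.37, 6.85 and 7.09 in wild type. Probe set 4335567 was 6.65, 4.74 and 6.05 on average in the same order. The 10 others had a median difference of -0.12 against wild type.

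Serinc3, a membrane protein of the serine incorporator family, also held 2 lower members among 22 probe sets. Probe set 4975892 was 11.04, 10.77 and 11.04 on AGO2 null arrays, 9.54, 9.52 and 9.18 in Dicer null and 10.78, 10.89 and 10.97 in wild type. Probe set 4966693 averaged 9.90, 8.55 and 9.93. Another, 4384202, differed by -1.07 from wild type and by -1.14 from AGO2 null, so 3 bright probe sets were lower together. The 20 probe sets that were no members had a median difference of -0.015 from wild type and -0.225 from AGO2 null.

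Single lower probe sets also marked Top2b, Psmd6 and Tnrc18, and in none of these was another probe set lower by 0.5 in both comparisons. Top2b encodes DNA topoisomerase II beta, and its probe set 4845047 was 9.64, 9.88 and 9.78 on AGO2 null arrays, 7.65, 7.81 and 8.01 in Dicer null and 10.07, 9.87 and 9.84 in wild type. The 42 others differed from wild type by -0.27 to 0.45 and from AGO2 null by -1.01 to 0.02. Psmd6 encodes a subunit of the 19S cap of the proteasome, and its probe set 4682253 was 9.84 ± 0.09 on AGO2 null arrays, 8.32 ± 0.13 in Dicer null and 9.82 ± 0.37 in wild type. In Tnrc18 the probe set 5615927 was 9.08 ± 0.18, 7.2 ± 0.17 and 9.32 ± 0.34 (SD, n = 3) in the same order.

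Zfp639 and Smyd3, which also ranked among the 12 largest lower members, overlapped between groups in the index, though not in the values before the gene level was subtracted. Zfp639 probe set 4456498 was 7.22, 5.77 and 7.12 on AGO2 null arrays, 4.51, 5.01 and 3.76 in Dicer null and 6.88, 5.60 and 6.77 in wild type. Replicate 2 of both other genotypes lay far below its fellows there. Smyd3 encodes a lysine methyltransferase, and its probe set 4605639 was 5.83, 5.0 and 5.34, then 3.15, 4.12 and 3.65, then 4.26, 5.63 and 6.24 in the same order. The wild-type array at 4.26 came close to the Dicer null range.

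**Figure D3:**
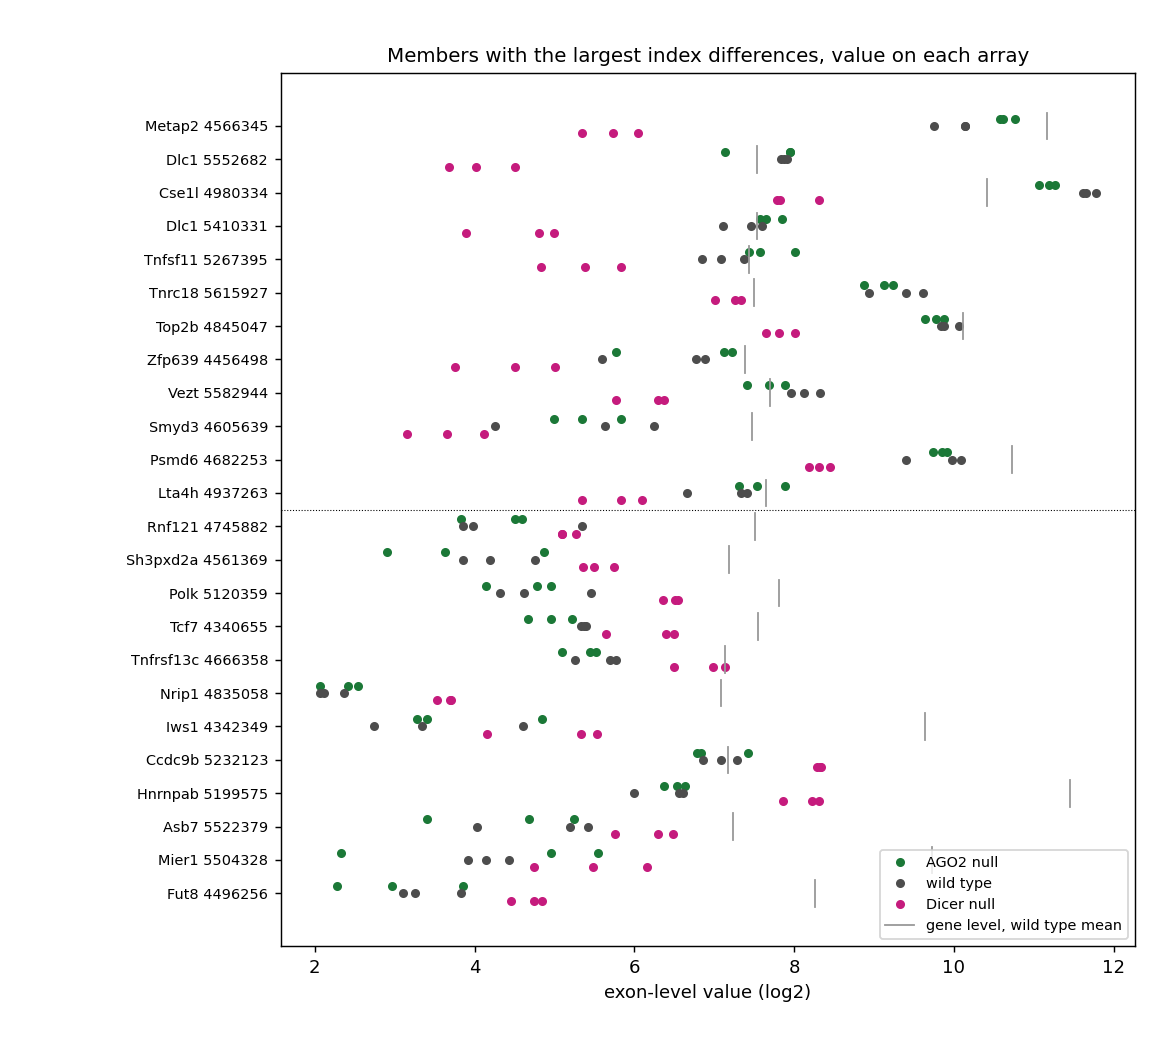
Log2 value on each array for the 12 lower (above the dotted line) and 12 higher members with the largest smaller index difference, with the wild-type gene level as a grey tick. Metap2, Cse1l and Dlc1 show Dicer null points far left of the rest, and in Iws1 and Mier1 the groups overlap.

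Vezt and Lta4h completed the 12 largest lower members, and with Metap2 and Cdk17 they are neighbours. In the RefSeq order of GRCm38.p6, used for order only, Cdk17, Lta4h, Metap2 and Vezt are 4 consecutive eligible genes of chromosome 10, and each held 1 lower member. Actr6, 6 places before Cdk17, held another. Within 12 places of Metap2, 5 of 25 eligible genes held a member, against 7 of 207 on the chromosome and 1.61% of all ordered genes. This window was centred on the largest member, and its 5 genes are among the 7, so nothing is read from the contrast. The longest run of consecutive genes with members was 3 for probe sets set apart in AGO2 null (198 ordered genes). It was 2 for those set apart in wild type (71 ordered genes). Why genes with members lie side by side was not tested.

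Vezt encodes vezatin, a protein of cell junctions, and its probe set 5582944 was 7.69, 7.41 and 7.89 on AGO2 null arrays, 6.30, 6.37 and 5.77 in Dicer null and 7.96, 8.12 and 8.33 in wild type. Lta4h encodes leukotriene A4 hydrolase, and its probe set 4937263 was 7.31, 7.54 and 7.88, then 5.35, 6.10 and 5.83, then 7.41, 6.66 and 7.33 in the same order. Cdk17, a cyclin-dependent kinase, had probe set 5407003 at 5.93, 6.14 and 5.90, then 5.29, 3.79 and 4.74, then 6.59, 5.86 and 6.4. None of these 3 overlapped, although Cdk17 was dim. In Actr6 probe set 5007925 the groups overlapped.

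**Figure D4:**
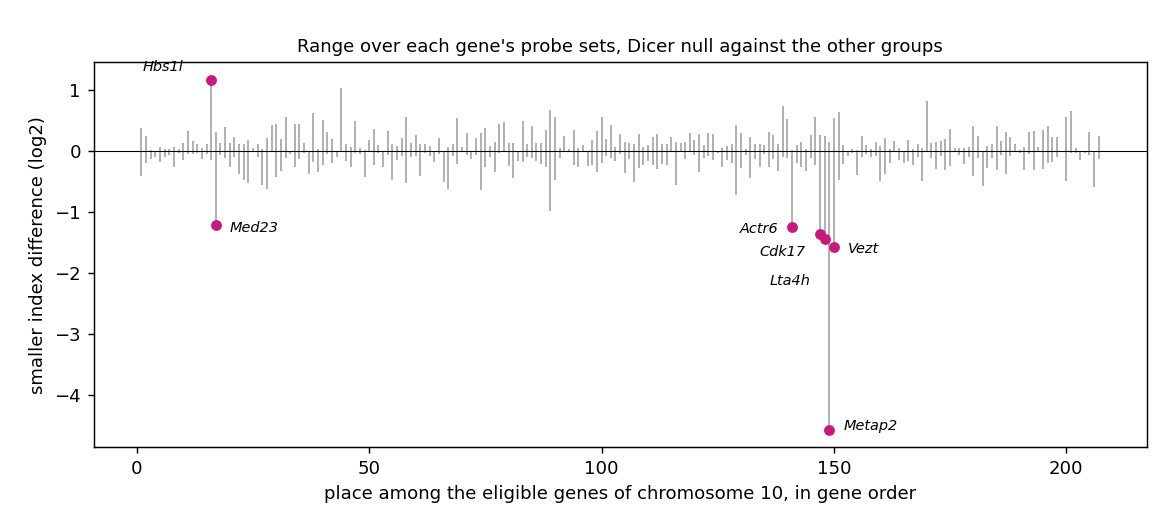
Range of the smaller index difference (log2) over the probe sets of each eligible gene of chromosome 10, in gene order, with genes that hold a member marked. Actr6, Cdk17, Lta4h, Metap2 and Vezt lie within 10 places of each other, and Hbs1l and Med23 are adjacent but point in opposite directions.

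Hnrnpab, which encodes an hnRNP protein that binds AU-rich RNA and is on the list of splicing regulators, held a higher member. Its probe set 5199575 was 6.64, 6.54 and 6.37 on AGO2 null arrays, 7.86, 8.22 and 8.31 in Dicer null and 6.61, 5.99 and 6.56 in wild type, without overlap. The gene level was 11.59, 11.76 and 11.45, above the member in every group. The 13 other probe sets differed from wild type by 0.07 to 0.37 and from AGO2 null by -0.41 to 0.2. With an offset of 50 added to the linear values its smaller index difference was 0.99, just short of the threshold, instead of 1.43.

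Wnk1, a kinase that controls sodium and chloride transport, was the only gene that held a member on a list of genes with known alternative exons. Its probe set 4721679 was 7.62, 7.38 and 7.54 on AGO2 null arrays, 8.98, 9.06 and 8.98 in Dicer null and 7.16, 7.5 and 7.5 in wild type. Probe set 5332694 was higher by 1.87 and 1.38, and 4390830 by 1.33 and 1.47, against wild type and AGO2 null, so 3 of 49 probe sets were higher by 1 or more in both comparisons while the 48 others had a median of 0.35. The smaller index difference of the member was 1.04, and it was 0.84 with the offset of 50 and 0.98 with the mean as gene level. Of 119 genes on the list, 56 were eligible and 1 held a member (1.79%), beside 1.61% of all 4098 eligible genes.

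Ccdc9b, a coiled-coil protein gene, had the widest gap of the higher members. Its probe set 5232123 was 7.42, 6.83 and 6.79 on AGO2 null arrays, 8.34, 8.29 and 8.33 in Dicer null and 7.08, 6.86 and 7.28 in wild type. Naa60, an acetyltransferase of protein N termini, had probe set 4574040 at 9.11, 9.06 and 9.01, then 9.85, 9.73 and 9.90, then 9.00, 9.45 and 9.12. Its gene-level row was lower in Dicer null (6.96) than in AGO2 null (7.59) and wild type (7.49), so the bright probe set and its gene stood on opposite sides. It was the only higher member above its gene in every group.

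Sh3pxd2a encodes TKS5, the scaffold of podosomes and invadopodia, and held 2 higher members among 24 probe sets. Probe set 5530503 averaged 2.84, 4.39 and 3.20, and probe set 4561369 averaged 3.8, 5.53 and 4.27 in AGO2 null, Dicer null and wild type. Another probe set, 4918579, was 3.71, 3.87 and 3.41 on AGO2 null arrays, 6.88, 7.11 and 6.84 in Dicer null and 5.54, 4.11 and 4.70 in wild type. It differed by more than both members but was left out because AGO2 null and wild type differed by more than 0.5. In all, 22 probe sets (12 lower, 10 higher) passed the limit of 1 and failed that one.

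The higher members with the largest index differences were dim in all groups. In Fut8, the fucosyltransferase that adds core fucose to N-glycans, probe set 4496256 was 2.97, 3.86 and 2.28 on AGO2 null arrays and 4.45, 4.84 and 4.74 in Dicer null. It was 3.10, 3.25 and 3.83 in wild type, beside a wild-type gene level of 8.26. In Asb7, a SOCS box protein of ubiquitin ligases, probe set 5522379 was 3.41, 4.68 and 5.25, then 6.48, 6.30 and 5.76, then 5.42, 4.03 and 5.19. In Mier1, a transcriptional repressor, probe set 5504328 was 4.96, 2.33 and 5.55, then 5.48, 6.16 and 4.74, then 3.92, 4.14 and 4.43. Fut8 and Asb7 did not overlap, and Mier1 did, with AGO2 null replicate 2 far below its fellows.

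The other named higher members have mixed known roles. Tnfrsf13c, the BAFF receptor of B cells, had probe set 4666358 at 5.36 ± 0.22 on AGO2 null arrays, 6.87 ± 0.34 in Dicer null and 5.58 ± 0.28 in wild type (SD, n = 3). Tcf7, a partner of beta-catenin, averaged 4.95, 6.17 and 5.36 in the same order. Nrip1, a nuclear receptor corepressor, averaged 2.35, 3.64 and 2.18, with a narrow spread at a level near the bottom of the scale. Polk, a translesion DNA polymerase, averaged 4.63, 6.47 and 4.80, Rnf121, a RING finger protein, 4.31, 5.15 and 4.4, and Iws1, a transcription elongation factor, 3.84, 5.0 and 3.56. Of these, Iws1 overlapped in index, and 1 wild-type array of Rnf121 (5.35) was above all Dicer null values before its gene level was subtracted.

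At the threshold the order was close. The nearest members were Tnk2 (1.001), Fdft1 (-1.005) and Dele1 (-1.005), and the nearest probe sets outside were in Rnf121 (0.997), Polr2e (-0.992) and Tomm70a (-0.989), each as the smaller index difference. With a limit of 1.5 there were 10 lower and 3 higher probe sets, and with 2 there were 4 and 0.

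The rule was also applied to 2 replicates of each genotype and read in the arrays left out. The comparisons with both other groups share the left-out Dicer null array, and the counts are given as a description with no value for unchanged probe sets beside them. Without replicate 1, 99 probe sets were chosen, 77 of which had the same sign against both groups in the arrays left out and 34 of which reached 1 in both. Without replicate 2 these counts were 106, 75 and 25, and without replicate 3 they were 92, 72 and 43. Lower choices reached 1 in 25.3% to 61.7% of cases and higher choices in 8.11% to 31.1%. Of the 78 members, 25 (21 lower and 4 higher, in 17 genes) were also chosen without any 1 of the 9 arrays. They included the Metap2, Top2b, Tnrc18 and Psmd6 members and 7 of the 8 in Col5a1, and the 4 higher ones were in Hnrnpab, Ccdc9b, Nrip1 and Tnfrsf13c.

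In annotation, the genes with members were longer than eligible genes, while the median number of curated transcripts was 2 in both. Their median span in RefSeq was 37.8 kb against 24.3 kb for all eligible genes, and they had a median of 18 probe sets against 14. Of the 66, 44 (66.7%) had 2 or more curated transcripts, against 52.4%, and this was 80.0% for genes with a higher member and 58.5% for genes with a lower one. Of 52 with a listed start, 15 (28.8%) had 2 or more, against 19.8%. A microRNA hairpin lay inside 4 of them (Mir1931 in Cdk17, Mir6905 in Med23, Mir6995 in Sh3pxd2a and Mir331 in Vezt), which was 6.06% against 4.15%. These shares are not adjusted for the length of the genes or their number of probe sets.

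The regulators of splicing were then read at the gene level, as the other genes of the process. Of 80 on the list 66 were measured, and in Dicer null against wild type 10 were higher and 8 lower at a limma adjusted p under 0.05, while 11.2% of all rows were higher and 15.7% lower. Against AGO2 null 11 were higher and 9 lower (9.45% and 16.9% of all rows), and in AGO2 null against wild type 10 were higher and 13 lower (11.8% and 9.17% of rows, 21.0% in all). With 1 row per gene, as in the list, 1807 of 14847 genes were higher and 3058 lower in Dicer null against wild type. Against AGO2 null these counts were 1281 and 3215, and for AGO2 null against wild type 2155 and 1581. The comparisons share samples. The median difference over the list was 0.07 against wild type, beside -0.03 over all 14847 genes. After median centring of the arrays the split against wild type was 24 higher and 6 lower.

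Rbpms, an RNA-binding protein of muscle and other mesenchymal cells, rose most, from 8.0 in wild type to 10.48 in Dicer null (difference 2.48 ± 0.07 SE, limma adjusted p = 2.2e-07), with AGO2 null at 9.81. Mbnl3 (0.95, limma adjusted p = 0.00802) and Celf2 (0.89, limma adjusted p = 0.00154), members of families with opposing effects on exons, rose against wild type, and both were also higher in AGO2 null than in wild type. Esrp2, an epithelial splicing regulator, rose by 0.37 (limma adjusted p = 0.0014).

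Khdrbs3, the STAR protein SLM2, fell most, from 7.43 to 5.84 (difference -1.6 ± 0.09 SE, limma adjusted p = 9.33e-06), and was 7.11 in AGO2 null. Rbpms2 fell by 0.87 (limma adjusted p = 0.00199), Rbm5 by 0.31 (limma adjusted p = 0.007) and Elavl2, at a dim 4.56, by 0.29 (limma adjusted p = 0.011). Hnrnpab, which also held a member, rose by 0.18 against wild type (limma adjusted p = 0.0358) and differed from AGO2 null by 0.02. No link between any regulator and the exon probe sets was tested.

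**Figure D5:**
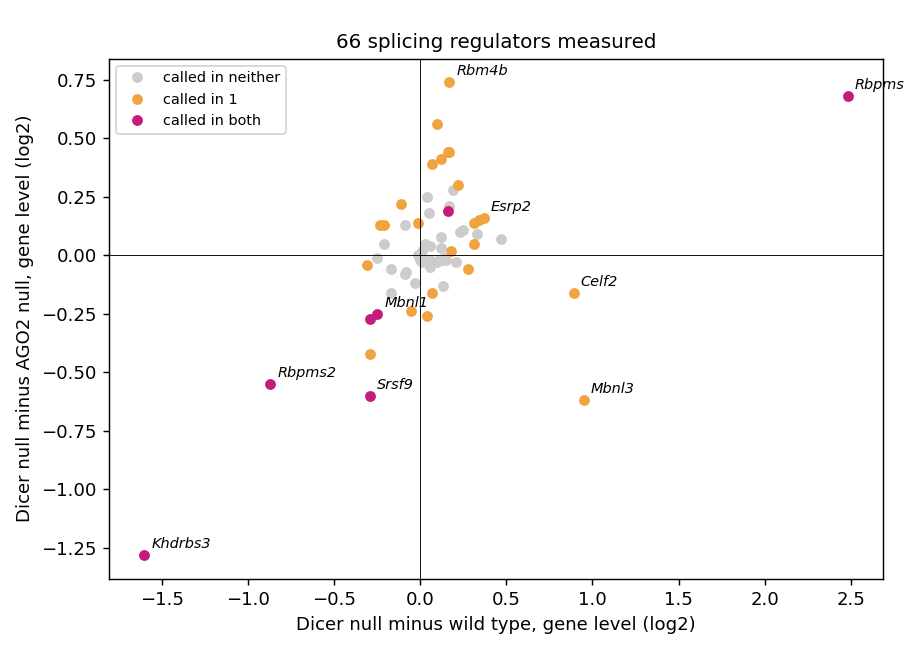
Gene-level difference (log2) of the 66 measured splicing regulators in Dicer null against wild type (horizontal) and against AGO2 null (vertical), coloured by calls at a limma adjusted p under 0.05. The axes share the Dicer null arrays, and Rbpms and Khdrbs3 lie farthest from the centre in opposite corners.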

How the data were processed

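The authors deposited log2 values per array in 2 tables, one of genes and one of exon probe sets. How they were background corrected, summarised and normalized is not stated in any source at hand. The build mm8 is credited to the submitters' processing notes. No further scaling was applied to the deposited values. Symbols came from the platform annotation, updated through RefSeq GRCm38.p6, which matched 208810 of the 209279 probe sets with 1 symbol; 4446 had several symbols and 15856 none. At the gene level 14996 of 23332 rows had 1 symbol. RefSeq also gave gene order, transcripts and promoters.

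Members, gene lists and the rule for named genes were chosen with earlier results of these data known. Named were the 12 largest members in each direction by the smaller index difference, all members of genes with 2 or more, members in genes with known alternative exons, the 3 probe sets on each side of the threshold, the 5 widest gaps in each direction, Dicer1 and Ago2, and the 4 largest rises and falls among called splicing regulators. Cdkn2a, Cdk17, Actr6, Hbs1l, Med23, 4 probe sets beside members and marker genes were named after their values were seen.

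The index was computed in Python 3.11.15 with pandas 2.3.3 and NumPy 2.4.6. Gene-level differences were fitted with limma 3.58.1 in R 4.3.3 (lmFit, eBayes, group means, all 9 arrays) with Benjamini-Hochberg adjustment over 23332 rows. Each listed gene entered with its brightest row. Both procedures were tested on simulated data. For the selection rule the simulated noise was below the median spread of the members between arrays, so that test says little about noisy, dim probe sets. Correlations of deviations between arrays of the same replicate number were -0.097 to 0.191, and between arrays of unlike number -0.18 to 0.139. These ranges overlapped, so the numbers were not taken to pair the arrays. The same-number values for AGO2 null against wild type were 0.015, 0.191 and 0.081, so a weak pairing there remains possible. No detection measure was used here, so differences against dim values depend on the floor of a probe set, and the number of arrays limits precision. Alternatives changed the gene level, scaling, offset, filters, thresholds and arrays.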

Additional observations from a re-analysis of the deposited data

How the results depend on the processing

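None of the 39 named members changed direction in 230 values recomputed with all arrays. They were chosen for large differences on these same arrays, so a change of direction was unlikely from the outset. Of the 230 values, 55 moved by at least the pooled SD between arrays of a genotype. Membership depended on the setting, and the causes were not tested. With the gene level as a mean there were 46 members (27 lower), of which 35 were shared with the 78. With the gene level from the gene-level table there were 74 (40 lower, 34 higher), of which 45 were shared. With an offset of 50 added to linear values there were 36 (31 lower, 5 higher), 22 of them shared, and 1 of the 26 higher members was kept. Keeping probe sets at or above the 25th percentile left 51 (8 higher), genes with 8 or more probe sets left 17 higher, gene groups within 0.25 left 28 (20 lower, 8 higher), and a threshold of 1.5 left 13 (10 and 3). Without 1 array there were 68 to 92 members (42 to 62 lower, 23 to 35 higher), 59 to 68 of them shared, and without 1 replicate number 92 to 106 (47 to 83 lower, 23 to 45 higher). Members kept without any 1 of the 9 arrays numbered 25 (21 lower, 4 higher) in 17 genes. Genes with members on the list of known alternative exons numbered 0 under quantile normalization, median centring, groups within 0.25 and a threshold of 1.5. They numbered 1 to 7 with arrays left out. There were 4 without AGO2 null replicate 1 or 3, and 3 without wild-type replicate 1. Without Dicer null replicate 1 or 3, or wild-type replicate 2 or 3, there were 2. Without all arrays numbered 1 or 3 there were 7 and 3.

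Splicing regulators against wild type were 24 higher and 6 lower after median centring, 16 higher among rows at or above the median level, and 6 to 15 higher and 7 to 10 lower without 1 array (6 higher without any Dicer null array in turn). Dicer null against AGO2 null gave 20 higher and 5 lower after quantile normalization, 16 higher and 7 lower after median centring, and 8 to 12 higher and 4 to 11 lower without 1 array (5 and 4 lower without Dicer null replicates 2 and 3). AGO2 null against wild type gave 5 higher and 15 lower after quantile normalization, 14 and 10 after median centring, 18 higher among rows at or above the median, 6 and 6 with only the 6 samples compared, and 7 to 13 higher and 8 to 14 lower without 1 array (8 lower without wild-type replicate 1 or 3). With the replicate number as a block the counts were 7 higher and 8 lower against wild type, 10 and 5 against AGO2 null, and 8 and 9 for AGO2 null against wild type. The numbers were not taken to pair the arrays. The 8 regulators named against wild type kept their direction and call in each of these settings in which they were tested. Elavl2 was too dim to enter the setting of rows at or above the median level.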

Other observations

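Some genes held probe sets set apart in more than one genotype. Serinc3, Pde6h, Dhx29 and Psmd6 also held a probe set set apart in AGO2 null, and Rnf121, Fbxw17 and Serhl held one set apart in wild type. By the same rule 224 probe sets were set apart in AGO2 null (112 lower, 112 higher) and 84 in wild type (62 lower, 22 higher). These sets share all 9 arrays. Of the 66 genes with a member, 59 had a row in the gene-level table. A row was lower in Dicer null than in both other groups by more than 0.5 in 5 of them (Cdkn2a, Col5a1, Dlc1, Hcfc1r1 and Naa60), and higher in 0.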
